A study of Mus musculus with 26 samples.

Results

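Macrophages that had entered the lung from bone marrow (BM) were compared with the alveolar macrophages that already lived there (AM), 3 days after bacterial lipopolysaccharide (LPS) was put into the trachea. The comparison takes 7 of the 26 RNA sequencing libraries of the series, 4 of BM-derived macrophages and 3 of resident AM, chosen by their labels of cell type and day alone. All 7 came from mouse lung and carry the treatment LPS, and no untreated library of day 3 enters. The labels of these groups give no genotype, strain, age or sex, no sorting gates, no dose, and do not say whether each replicate is another animal. The p-values below therefore weigh a difference only against the spread among the libraries fitted, part of which may be technical. The sets of the same 2 cell types at day 1 (9 libraries) and day 7 (7 libraries) show where day 3 differs. They and 3 libraries of untreated AM also enter the fit, and so its filter, scaling and shared estimate of spread. The untreated libraries are described as young, a label the other groups lack, and carry a library-name prefix of their own. Libraries are numbered as in the titles, as in BM_day3.1.

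Resident alveolar macrophages are seeded around birth, depend on the growth factor GM-CSF and the nuclear receptor PPARγ, and clear surfactant lipid and inhaled particles. When LPS inflames the lung, blood monocytes enter through the chemokine receptor CCR2 and turn into macrophages that first keep monocyte features and later acquire those of tissue macrophages, such as the complement component C1q. The transcription factor PU.1 acts at the promoters of most macrophage genes.

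The labels could be checked against 4 markers. Siglecf, the sialic acid-binding lectin by which alveolar macrophages are recognised (chromosome 7, 43351341 to 43359531 of GRCm38), had 15.2, 19.4, 16.7 and 2.58 CPM in BM, against 153, 129 and 242 CPM in AM, in the order of the library numbers (CPM, each library's counts scaled to a common total and by TMM factors). Pparg, which encodes PPARγ (chromosome 6, 115360951 to 115490399), had 25.7, 31.1, 19.5 and 23.1 CPM in BM, against 156, 113 and 157 CPM in AM. C1qa, a chain of C1q (chromosome 4, 136895917 to 136898803), had 498, 1198, 1990.5 and 926 CPM in BM, against 103, 370.1 and 109.9 CPM in AM. Ccr2, the receptor for monocyte entry (chromosome 9, 124101950 to 124113557), had 109, 240.5, 336 and 353 CPM in BM, against 18.4, 57.5 and 23.5 CPM in AM. All 4 markers were on the labelled side without overlap between the groups, and none was at 0 in a library of either group.

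The promoter windows of 4 genes show what lies upstream of genes that separate the cells, C1qb and C1qc from the group that was higher in BM, Cd9 and Siglecf from the group that was lower. Each window holds the 150 bases before the RefSeq transcription start in the direction of the gene, on GRCm38.p6. Capitals mark the letters GAGGAA, the core of PU.1 sites, and TGCTGA, found in the sites of MAF factors, searched on both strands. The 2 motifs do not overlap in these windows. They lie at chr4:136886201-136886350 on the minus strand, chr4:136892915-136893064 on the minus strand, chr6:125494761-125494910 on the minus strand and chr7:43351191-43351340 on the plus strand.
C1qb: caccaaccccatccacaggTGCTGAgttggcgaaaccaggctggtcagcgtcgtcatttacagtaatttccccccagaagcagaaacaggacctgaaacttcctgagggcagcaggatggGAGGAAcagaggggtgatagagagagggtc
C1qc: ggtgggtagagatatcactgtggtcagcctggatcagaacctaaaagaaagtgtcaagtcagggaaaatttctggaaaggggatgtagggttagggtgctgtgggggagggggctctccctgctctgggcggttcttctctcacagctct
Cd9: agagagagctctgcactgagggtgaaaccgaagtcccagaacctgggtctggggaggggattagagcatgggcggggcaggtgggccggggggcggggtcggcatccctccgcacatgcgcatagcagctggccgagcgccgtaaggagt
Siglecf: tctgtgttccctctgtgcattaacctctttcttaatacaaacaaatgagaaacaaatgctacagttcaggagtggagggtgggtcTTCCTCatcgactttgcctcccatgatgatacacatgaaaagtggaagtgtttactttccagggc
The C1qb window holds TGCTGA with its first letter 131 bases before the start and GAGGAA 30 bases before it. In the Siglecf window GAGGAA is on the opposite strand, written here as TTCCTC. The windows of C1qc and Cd9 hold neither. In the annotation that gave the gene spans above, C1qc reaches to 136893065 and Cd9 to 125494791. By those spans the C1qc window lies within the gene, and part of the Cd9 window does. Of the 32843 windows of this length in the table, 14.5% hold GAGGAA and 10.1% hold TGCTGA on either strand.

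The libraries differed in ways that bear on every result. Total counts were 11382242 to 22280695 in BM and 11244884 to 14501585 in AM, and genes with at least 1 count numbered 9126 to 12968 in BM and 14826 to 15148 in AM. BM_day3.1 stood apart, with 9126 genes and a median correlation across genes of 0.672 with its own group, against 0.817 to 0.819 in the other BM libraries and 0.903 to 0.906 in AM. Median correlations with the other group were 0.662, 0.845, 0.801 and 0.852 in BM and 0.821 to 0.838 in AM. BM_day3.2 and BM_day3.4 thus correlated more closely with the AM libraries than with their own group. The median standard deviation of a gene's log2(CPM + 1) was 0.765 within BM and 0.307 within AM, and 0.451 within BM without BM_day3.1. Summed RNA of 4 Y-linked genes was 0.165, 0.0479, 167 and 169 CPM in BM, against 217, 227 and 194 CPM in AM, so 2 of the 4 BM libraries lacked it and all AM libraries had it. Xist, an RNA of female cells, had 85.6, 269, 8.81 and 0 CPM in BM, against 2.41, 20.8 and 0.450 CPM in AM. It was thus highest in the BM libraries that lacked Y-linked RNA, and among AM in AM_day3.2. The sequencing names number the BM libraries 9, 12, 28 and 30 and the AM libraries 31, 32 and 16, and what the numbers stand for is not given.

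BM_day3.1 carried the RNA of connective tissue. Its most counted gene was Col1a1, a chain of type I collagen, which had 14976, 29.9, 152 and 5.42 CPM in BM, against 0, 3.51 and 32.1 CPM in AM. Genes named as collagen chains took 3.35% of its counts, against 0.0126% to 0.0710% in the other BM libraries and 0.00575% to 0.0118% in AM. Among its 10 most counted genes were also Col1a2 and the macrophage genes Apoe, Psap, Lyz2 and Tgfbi. The largest ratios to the highest of the other 6 day 3 libraries, among genes it held at 50 CPM or more, were those of Ccn4 (125 CPM, 696-fold), Ppic (543-fold), Fkbp10 (415-fold), Itga11 (308-fold) and Ibsp (4348 CPM, 226-fold). Cdh11, Neo1, Postn, Col5a2 and Alpl followed, at 201-fold to 123-fold. Ibsp, bone sialoprotein, and Alpl, an alkaline phosphatase, are genes of bone-forming cells. A further 22 genes at 50 CPM or more in it had 0 counts in the other 6.

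Markers of other cell types were summed in each library, and their part in the results was not tested. Fibroblast markers summed to 29729.9 CPM in BM_day3.1, 53.1 to 370 CPM in the other BM libraries and 4.59 to 68.3 CPM in AM. Neutrophil markers summed to 5369 CPM in BM_day3.1, 621 to 1464 CPM in the other BM libraries and 596 to 1179 CPM in AM, and S100a9, the most abundant of them per kilobase, had 1251, 97.3, 73.1 and 16.4 CPM in BM, against 29, 75.8 and 10.8 CPM in AM. T and NK cell markers summed to 0.330 CPM in BM_day3.1, 56.1 to 69.1 CPM in the other BM libraries and 112 to 241 CPM in AM, with 12 of the 14 tested at 0 counts in BM_day3.1. Much of the AM sum was Cd2, with 78.8 to 212 CPM in AM and 0.0825 to 21.2 CPM in BM. Cd2 had 324 to 430 CPM in untreated AM and 281 to 321 CPM in AM at day 7. B cell markers summed to 61.7 to 263 CPM in BM and 14 to 71.9 CPM in AM, dendritic cell markers to 63.2 to 155 CPM in BM and 45.5 to 56.6 CPM in AM, endothelial markers to 75.4 to 159 CPM in BM and 60.7 to 77.1 CPM in AM, and lung epithelial markers to 69.8 to 186 CPM in BM and 98.9 to 146 CPM in AM. Csf3r among the neutrophil markers was called higher and Ltf lower, and Lck among the T and NK cell markers lower. No gene of the fibroblast list was called. Markers of eosinophils, mast cells and basophils summed to 0 to 2.14 CPM in BM and 0 to 1.24 CPM in AM. Pf4, a platelet chemokine that macrophages also make, was the marker of the erythroid and platelet list with the most RNA per kilobase and had 113, 79.8, 50.7 and 26.7 CPM in BM, against 43.7, 22.6 and 32.8 CPM in AM.

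**Figure D1:**
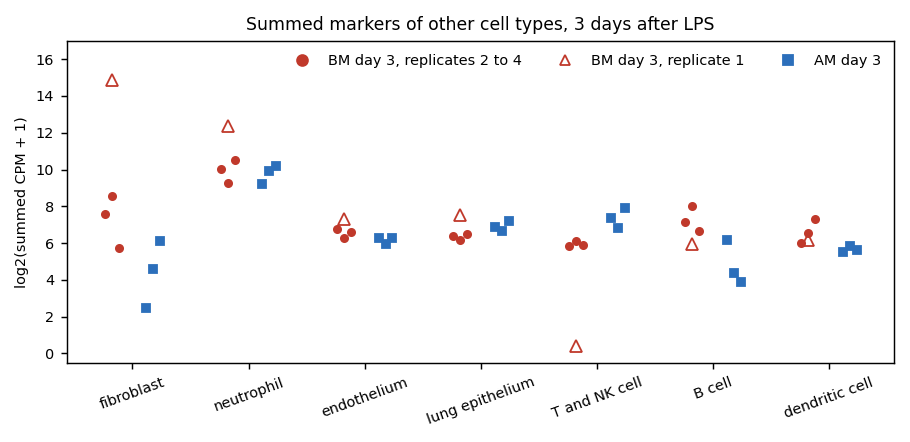
Summed level of 7 marker lists in each day 3 library, as log2(summed CPM + 1), BM left of AM. BM_day3.1 (open triangle) lies above all others for fibroblast and neutrophil markers, at 29729.9 and 5369 CPM, and near 0 for T and NK cell markers.

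With a common estimate of spread over all 26 libraries, 683 of 17143 genes tested were called at an adjusted p under 0.05 (edgeR quasi-likelihood test, Benjamini-Hochberg), which is 3.98% of them. Of these, 171 were higher in BM (0.997%) and 512 lower (2.99%). Leaving BM_day3.1 out gave 658 calls among 17105 genes (3.85%). Of those, 218 (1.27%) were higher and 440 (2.57%) lower. Of the 683 calls, 477 stood in both fits with the same direction, 69.8% of the first list and 72.5% of the second. The values of BM and AM libraries did not overlap for 2564 genes (15.0%). Fewer cells of a kind and less RNA per cell cannot be told apart in such bulk samples.

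The calls rest on the shared estimate of spread. In a fit to the 7 libraries alone 6 genes were called, and 1315 had an unadjusted p under 0.05. A fit that let each group have its own spread (limma voom with a weight per group) called 110 genes (0.642%), 67 higher and 43 lower, of which 88 were among the 683. Of the 79 genes named here as called, 20 were called in that fit too. Cd9 was called under all 24 alternatives run, the one with a lone AM library included. All 79 kept their direction in each alternative that gave them a result. Adding Y-linked RNA to the model as a covariate left 287 calls. Among libraries numbered 26 to 34 (2 BM and 2 AM) it was 42 genes, and among those numbered 7 to 16 (2 BM and 1 AM) it was 74, with the spread of the lone AM library taken from the other groups.

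**Figure D2:**
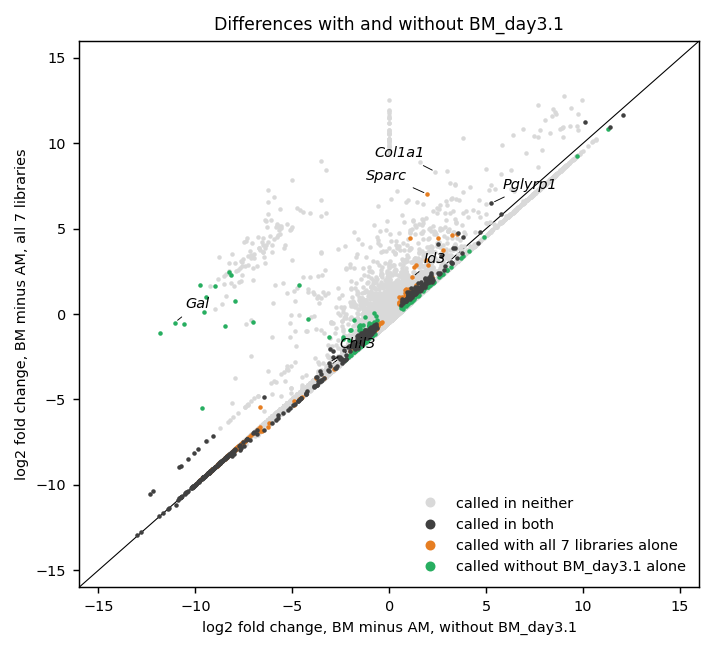
Log2 fold change (BM minus AM) of each gene with all 7 libraries, against the same without BM_day3.1, with the line of equality. Col1a1 and Sparc lie far above the line, at 8.33 and 7.02 with all libraries against 2.39 and 1.96 without BM_day3.1, while Pglyrp1 and Chil3 are called in both. Fitted values of genes with a group at 0 give a direction and no size.

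Genes of alveolar macrophage identity were lower in BM. Of 25 members tested, 22 fell and none rose (21 and none without BM_day3.1), with a median log2 fold change of −3.31 against −0.07 over all genes tested, and 24 of the 25 had no overlap between the groups. The levels were summed to 4009.7 to 6755 CPM in BM and 29729 to 36849.7 CPM in AM. The list was described in these samples before, and its direction is no independent evidence. With a spread of its own for each group, 1 of the 25 remained called.

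Siglecf fell by 3.70 ± 0.60 on the log2 scale (SE, adjusted p = 0.0013), and Pparg by 2.51 ± 0.35 (adjusted p = 0.0001). Chil3, a secreted chitinase-like protein and the most abundant member per kilobase of exon (5461 CPM per kb over the 7 libraries), had 3613, 2649, 1133 and 2331 CPM in BM, against 19713, 16801 and 16144 CPM in AM. It fell by 2.85 ± 0.40 (adjusted p = 0.00026), with the highest BM library well below the lowest AM library. Cidec, which enlarges lipid droplets, had 0, 0, 1.92 and 0.877 CPM in BM, against 47.9, 86.3 and 117 CPM in AM, and fell by 6.79 ± 1.48 (adjusted p = 0.012). Krt19, a keratin, had 0.165, 13.9, 6.33 and 5.04 CPM in BM, against 184, 135 and 415 CPM in AM, and Serpinb1a, an inhibitor of neutrophil proteases, had 0, 4.89, 6.93 and 0 CPM in BM, against 67.9, 87 and 132 CPM in AM. Every BM library lay far below every AM library for these genes. Fabp1, a fatty acid binding protein, had 0, 3.16, 0 and 0 CPM in BM, against 8.94, 30.02 and 40.03 CPM in AM, and its adjusted p was 0.045 with all libraries and 0.069 without BM_day3.1. Itgax, which encodes the integrin CD11c, had 286, 382, 344 and 300.01 CPM in BM, against 1061, 576 and 971 CPM in AM, and fell by 1.41 ± 0.29 (adjusted p = 0.0061). Reads of Ear1 and Ear2, a pair of called ribonucleases, may be split between these near-identical genes.

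**Figure D3:**
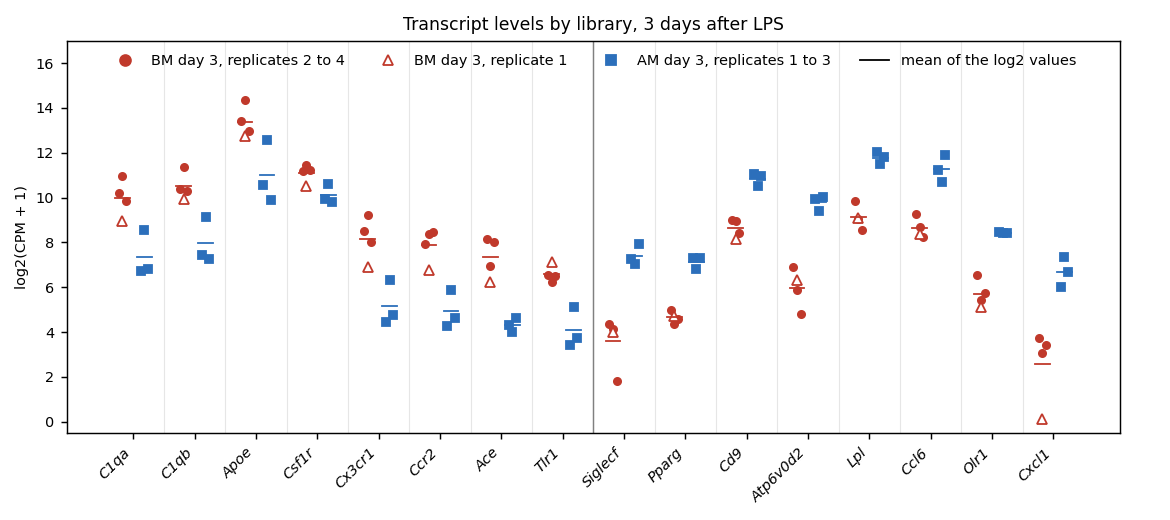
Level of 16 genes in each day 3 library as log2(CPM + 1), BM left of AM, with a bar at the mean of the log2 values of each group. The 8 genes left of the grey line were higher in BM and the 8 right of it lower, and AM_day3.2 is the highest AM library for C1qa, C1qb, Apoe, Csf1r, Cx3cr1, Ccr2 and Tlr1.

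Many of the genes called lower had no count at all in BM. All 4 BM libraries were at 0 for 263 of the 512 (51.4%), and these averaged 0.55 to 45.3 CPM in AM, with a median of 2.41 CPM and 44 of them at 5 CPM or more. Only 3 of the 171 genes called higher were at 0 in all AM libraries. Over all genes tested, 2940 were at 0 in every BM library and 1422 in every AM library, beside the lower number of genes detected in BM. The share of a library's detected genes with 1 to 9 counts was 18.4% in BM_day3.1, 6.20% to 7.41% in the other BM libraries and 10.9% to 13.4% in AM. These other BM libraries had more total counts than any AM library but fewer genes detected and a lower share of low counts. How far this bears on the genes at 0 in BM was not tested.

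The largest falls were among these genes. For those at 0 in BM, Acot1 excepted, a lower bound is given, from a floor of 3 counts over the 4 BM libraries, which covers counting error only. Flvcr2, a transporter of the feline leukaemia virus receptor family, was at 0 in BM and had 33.6, 41.2 and 61.3 CPM in AM, at least 1128-fold lower in BM. Ucp3, a mitochondrial uncoupling protein, had 42.1, 24 and 52.4 CPM in AM and was at least 983-fold lower. The actin-binding protein Coro6 was at least 518-fold lower, the serotonin receptor Htr2c 448-fold, Cchcr1 363-fold, the phosphatase Ppm1j 249.9-fold, Bsn 244-fold and the transcriptional repressor Zbtb32 239.5-fold. The acyl-CoA thioesterase Acot1 had 0, 0, 0 and 0 CPM in BM, against 6.45, 12.8 and 26.9 CPM in AM, and no bound is given, since it would rest largely on AM_day3.3. Its reads may be split with Acot2, a close paralog. Hspa12a had 0, 0, 0 and 0.0548 CPM in BM, against 37.6, 27.6 and 68.2 CPM in AM, where 0.0548 CPM is 1 read. Slc6a4, the serotonin transporter, had 0.0825, 0, 0 and 0 CPM in BM, against 33.7, 19.6 and 33.4 CPM in AM, and Ffar4, a receptor for long-chain fatty acids, had 0.0825, 0, 0 and 0 CPM in BM, against 27.1, 18.4 and 31.8 CPM in AM. Adjusted p-values for these 12 genes in edgeR's test were 9.6e-05 to 0.0090.

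Leaving BM_day3.1 out added calls. Abhd3, a lipase, had 36.8, 0, 0 and 0 CPM in BM, against 21.8, 9.26 and 28.4 CPM in AM, and Gal, which encodes the neuropeptide galanin, had 33.8, 0, 0 and 0 CPM in BM, against 4.35, 16.9 and 14.4 CPM in AM. Both were at 0 in the other BM libraries and were called lower without BM_day3.1 (adjusted p = 0.0069 and 0.0036), against adjusted p-values of 0.87 and 0.99 with it.

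Genes of tissue macrophages were higher in BM. Of 26 members tested, 9 rose and none fell, with and without BM_day3.1, and the median log2 fold change was 1.39. With a spread of its own for each group, 8 remained called, and in the fit to the 7 libraries alone none did. Among the called genes were C1qa, C1qb, C1qc, Apoe, Maf, Csf1r, Cx3cr1 and Stab1. Stab1 rose by 1.83 ± 0.50 (adjusted p = 0.041) and missed the threshold without BM_day3.1, at 1.90 ± 0.55 (adjusted p = 0.057), and the surface receptor Adgre1 (F4/80) was gained.

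C1q binds antibody complexes and dying cells and starts the classical complement pathway, and its 3 chains are encoded side by side on chromosome 4. C1qa rose by 2.57 ± 0.49 (adjusted p = 0.0045). C1qb had 980.4, 1327, 2669 and 1251 CPM in BM, against 175, 568 and 152 CPM in AM, and rose by 2.38 ± 0.51 (adjusted p = 0.01). C1qc had 424, 869.99, 1382 and 627 CPM in BM, against 77.4, 338 and 71.1 CPM in AM, and rose by 2.35 ± 0.59 (adjusted p = 0.027). For all 3 chains the lowest BM library was above the highest AM library, which was AM_day3.2 each time. C1qb was the most abundant complement transcript per kilobase (935 CPM per kb).

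Apoe, the lipid carrier apolipoprotein E, had the most RNA per kilobase of the list (3671 CPM per kb), with 6824, 10842, 20736 and 8029.9 CPM in BM, against 1527, 6035 and 949 CPM in AM. It rose by 2.03 ± 0.55 (adjusted p = 0.041), and AM_day3.2 was the AM library nearest to BM. Csf1r, the receptor for the macrophage growth factor CSF1, had 1447, 2352, 2791 and 2404 CPM in BM, against 992, 1557 and 881 CPM in AM, and rose by 0.98 ± 0.19 (adjusted p = 0.004), and by 1.13 ± 0.17 without BM_day3.1 (adjusted p = 0.00038). For Csf1r the library BM_day3.1 lay below AM_day3.2. Cx3cr1, the fractalkine receptor, had 117, 364, 593 and 256 CPM in BM, against 21.1, 79.1 and 26.3 CPM in AM, and rose by 2.98 ± 0.84 (adjusted p = 0.048). Stab1, a scavenger receptor, had 819.9, 778, 1385 and 892 CPM in BM, against 125, 525 and 165 CPM in AM.

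AM_day3.2 lay nearest to BM among the AM libraries for many called genes. Of the 171 genes called higher in BM, it was the highest AM library for 135, and of the 512 called lower it was the lowest for 275. Over all 17143 genes tested it was the highest of the 3 for 5316 and the lowest for 4591. In the tissue macrophage list it was the highest for 18 of 26 and in the identity list it was the lowest for 17 of 25. AM_day3.2 also had the most Xist of the AM libraries (20.8 CPM). What sets it apart was not tested.

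Genes of blood monocytes were higher in BM in part. Of 20 members tested 6 rose and none fell (8 and none without BM_day3.1), with a median log2 fold change of 1.65. With a spread of its own for each group none was called. Ccr2 rose by 2.97 ± 0.64 (adjusted p = 0.01). Ace, angiotensin-converting enzyme and a marker of patrolling monocytes, had 73.4, 288, 124 and 258 CPM in BM, against 19, 15.1 and 23.9 CPM in AM, and rose by 3.26 ± 0.56 (adjusted p = 0.0021). Cd244a, a receptor of the SLAM family, had 35.6, 25.7, 10.4 and 36.5 CPM in BM, against 3.65, 7.22 and 5.58 CPM in AM, and rose by 2.30 ± 0.55 (adjusted p = 0.017). Spn and Pou2f2 were called too, with and without BM_day3.1.

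Of the other members, Ly6c2, Itgam and Hp were not called. Ly6c2 had 1046, 609, 807 and 1659 CPM in BM, against 339, 1189 and 430.4 CPM in AM, so that AM_day3.2 was above 3 of the 4 BM libraries, and its difference was 0.66 ± 0.51 (adjusted p = 0.55). Itgam, which encodes CD11b, had 919, 541, 401 and 629 CPM in BM, against 359.9, 447 and 271 CPM in AM, and its groups overlapped (0.79 ± 0.40, adjusted p = 0.25). Hp, haptoglobin, the most abundant member of the list per kilobase, had 2054, 938, 754 and 1462 CPM in BM, against 1179, 1399 and 1169 CPM in AM, with a difference of 0.06 ± 0.32 (adjusted p = 1).

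Transcription factors split by cell type. Of 31 tested, 4 rose and 3 fell, 2 and 3 without BM_day3.1. Maf had 232, 199.7, 328 and 203 CPM in BM, against 51.6, 130.3 and 40.8 CPM in AM, with no overlap, and rose by 1.70 ± 0.45 (adjusted p = 0.03). Id3, an inhibitor of DNA-binding factors, had 93.6, 22, 16.5 and 20.4 CPM in BM, against 5.21, 11.2 and 9.08 CPM in AM, and its call rested on BM_day3.1 (adjusted p = 0.046 with it, 0.17 without). Irf5 too was called only with that library included. Rxra, the partner of PPARγ on DNA, had 102, 112, 117 and 79.6 CPM in BM, against 165, 152 and 225 CPM in AM, and fell by 0.81 ± 0.22 (adjusted p = 0.036, or 0.05 without BM_day3.1). Cebpb, the most abundant factor per kilobase, had 609, 837, 691 and 629 CPM in BM, against 1025, 946 and 1047 CPM in AM, and fell by 0.54 ± 0.15 (adjusted p = 0.036, or 0.086 without BM_day3.1). Without that library Egr2 and Tfec were called lower.

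Receptors for cytokines and chemokines were higher in BM where they changed. Of 26 tested, 7 rose and none fell (8 and none without BM_day3.1), with a median of 0.47. Csf3r, the receptor for the neutrophil growth factor G-CSF, had 316, 269.9, 265 and 197 CPM in BM, against 59.9, 166 and 56.8 CPM in AM, and rose by 1.47 ± 0.35 (adjusted p = 0.018). It also stands in the neutrophil list. Ifnar1, a chain of the type I interferon receptor, had 224, 244, 261 and 250.2 CPM in BM, against 97.2, 165 and 96.3 CPM in AM, and rose by 1.03 ± 0.19 (adjusted p = 0.0028). Il10ra rose in both fits, and Il1r2, a decoy receptor for interleukin 1, was called only with BM_day3.1 included.

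Sensors of microbes and their signalling genes gave few calls. Of 27 members tested, 2 rose and none fell, with a median of −0.08. Tlr1, a receptor that pairs with TLR2 to sense bacterial lipopeptides, had 140.2, 93.6, 73.2 and 90.02 CPM in BM, against 9.87, 34.3 and 12.4 CPM in AM, with no overlap, and rose by 2.39 ± 0.52 (adjusted p = 0.0088). Socs3, an inhibitor of cytokine signalling, had 427, 588, 433 and 595 CPM in BM, against 198, 281 and 300.2 CPM in AM, and rose by 0.98 ± 0.26 (adjusted p = 0.029). Cd14, the co-receptor for LPS and the most abundant member per kilobase, had 763, 1142, 837 and 788 CPM in BM, against 960.01, 949 and 1048 CPM in AM, and missed the threshold (−0.16 ± 0.21, adjusted p = 0.8). Interferon-stimulated genes gave no call among 27 tested. Gbp2, their most abundant member per kilobase, had 457, 459.7, 519.9 and 1006 CPM in BM, against 534, 643 and 476 CPM in AM, with BM_day3.4 above all the others. MHC class II and costimulation gave no call among 13 in spite of a median of 1.05. Its summed level was 7204 CPM in BM_day3.1, 14579 to 19987.5 CPM in the other BM libraries and 6808 to 10366 CPM in AM. Ctss, a protease that trims the invariant chain, had the most RNA per kilobase of that list and 3233, 4736, 5252 and 4716 CPM in BM, against 4156, 5030.4 and 4258 CPM in AM.

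Of 6 neutrophil chemoattractants tested 2 fell and none rose, with a median log2 fold change of −1.65 over the 6. Of 18 other chemokines 2 fell and none rose, and of 21 cytokines and mediators 2 fell and none rose, but the medians of these lists lay above 0, at 0.71 and 0.20. Without BM_day3.1 each list had 1 gene called, and the medians were −1.60, 0.83 and 0.18. No gene of these lists was called with a spread of its own for each group. Cxcl1, which draws neutrophils through CXCR2, had 0.0825, 12.5, 7.49 and 9.64 CPM in BM, against 62.9, 162 and 100.3 CPM in AM, and fell by 3.86 ± 0.66 (adjusted p = 0.0021). Cxcl3 had 66.5, 271, 142 and 137 CPM in BM, against 961, 454 and 528 CPM in AM, and fell by 2.07 ± 0.51 (adjusted p = 0.025, or 0.062 without BM_day3.1). Cxcl2, the most abundant of the family per kilobase, had 746, 616, 454 and 225 CPM in BM, against 1127, 1143 and 1290.2 CPM in AM, with no overlap, but was not called (−1.22 ± 0.39, adjusted p = 0.078).

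Ccl6, a chemokine of resident macrophages, had 335, 625, 411 and 302 CPM in BM, against 2419, 1646 and 3791 CPM in AM, and fell by 2.65 ± 0.28 (adjusted p = 2.7e-06). Every AM library lay above every BM library. Ccl9 was called only with BM_day3.1 included. Il18, an interleukin processed by inflammasomes, had 0.0825, 12.9, 2.82 and 9.64 CPM in BM, against 112, 109 and 137 CPM in AM, and fell by 4.21 ± 0.99 (adjusted p = 0.02). Il1a had 147, 207, 106 and 138 CPM in BM, against 264, 438 and 387 CPM in AM, and fell by 1.28 ± 0.36 (adjusted p = 0.045, or 0.086 without BM_day3.1).

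The main inflammatory cytokines did not separate the cells. Il1b had 1188, 1258, 809.6 and 622 CPM in BM, against 1083, 869 and 926 CPM in AM, with a difference of 0.01 ± 0.25 (adjusted p = 1). Tnf had 64.6, 165, 91.8 and 74.4 CPM in BM, against 73.9, 249 and 169 CPM in AM, with a difference of −0.73 ± 0.37 (adjusted p = 0.26). Saa3, an acute phase protein and the most abundant mediator per kilobase, had 5007, 4904, 3142 and 6504 CPM in BM, against 1584, 6074 and 2516 CPM in AM, with a difference of 0.53 ± 0.77 (adjusted p = 0.84). These intervals are wide and do not show that the levels were alike.

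Among complement genes, 5 of 16 rose and 1 fell (4 and 1 without BM_day3.1). The C1q chains were among those that rose in both fits. The member that fell was Itgax, a chain of complement receptor 4.

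Receptors for particles and scavenged ligands were mostly lower in BM where they changed. Of 24 tested, 1 rose (Stab1) and 4 fell, the same 4 without BM_day3.1. None of the 24 was called lower, and 1 was called higher, with a spread of its own for each group. Marco, a scavenger receptor for bacteria, had 28.9, 135, 78.1 and 62.1 CPM in BM, against 1454, 849.9 and 1191 CPM in AM, and fell by 3.94 ± 0.73 (adjusted p = 0.0045). Mrc1, the mannose receptor, had 174, 201, 283 and 96.7 CPM in BM, against 448, 605 and 868 CPM in AM, and fell by 1.76 ± 0.41 (adjusted p = 0.016). Olr1, a receptor for oxidised lipoprotein, had 33.7, 93.1, 42.7 and 52 CPM in BM, against 354, 342 and 342 CPM in AM, and fell by 2.64 ± 0.31 (adjusted p = 1.4e-05). Clec7a, the β-glucan receptor, had 317, 644, 454 and 273 CPM in BM, against 1839, 1103 and 1586 CPM in AM, and fell by 1.84 ± 0.41 (adjusted p = 0.013). Fcer1g, the signalling chain of Fc receptors and the most abundant member per kilobase, had 579, 625, 472 and 609.7 CPM in BM, against 826, 659 and 591 CPM in AM, and did not pass (adjusted p = 0.45).

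Of 22 genes of integrins and adhesion, 1 rose and 3 fell (4 and 3 without BM_day3.1). Cd9, a tetraspanin, had 287, 512, 501 and 343 CPM in BM, against 2098, 1481 and 1989 CPM in AM, and fell by 2.18 ± 0.21 (adjusted p = 1.5e-06). Its fall was 2.05 ± 0.22 without BM_day3.1, 2.08 within the libraries numbered 26 to 34 and 2.32 within those numbered 7 to 16, where the lone AM library is assumed to vary like the other groups. Cd44, the hyaluronan receptor, had 330.5, 716, 540.2 and 602 CPM in BM, against 1005, 1052 and 1257 CPM in AM, and fell by 1.01 ± 0.17 (adjusted p = 0.0012). Without BM_day3.1 Itgal, Itga4, Itgav and Itgb5 were called higher. Itgb2, the shared β2 chain and the most abundant member per kilobase, had 1434, 1706, 1565 and 2025 CPM in BM, against 2169, 1865 and 2052 CPM in AM (adjusted p = 0.25).

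Most lysosome genes did not pass the test. Of 35 tested, 2 rose and 3 fell, and the median was −0.16. Atp6v0d2, a subunit of the proton pump, had 80.05, 119, 58.6 and 26.7 CPM in BM, against 977, 681 and 1049.95 CPM in AM, and fell by 3.67 ± 0.35 (adjusted p = 1.5e-06), with no overlap. It was called under every alternative except the fit to the 7 libraries alone. Ctsk, cathepsin K, had 30.1, 189, 245 and 60.5 CPM in BM, against 2944, 1203 and 1686 CPM in AM, and fell by 3.89 ± 0.63 (adjusted p = 0.0015). Lipa, lysosomal acid lipase, had 187, 265, 227 and 300.5 CPM in BM, against 465, 414 and 401 CPM in AM, and fell by 0.80 ± 0.21 (adjusted p = 0.028, or 0.068 without BM_day3.1). Lgmn, an asparaginyl protease, was among those called higher in both fits. Psap, the precursor of the saposins and the most abundant member per kilobase, had 6616, 11597, 10264 and 9728 CPM in BM, against 9566, 10717 and 8862 CPM in AM, with a difference of −0.02 ± 0.19 (adjusted p = 1).

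Lipid handling differed gene by gene. Of 26 genes of lipid uptake, storage and efflux 2 rose and 6 fell (2 and 5 without BM_day3.1). None was called lower, and 1 was called higher, with a spread of its own for each group. Lpl, lipoprotein lipase, had 536, 907, 534 and 377 CPM in BM, against 4246, 2857 and 3551 CPM in AM, and fell by 2.59 ± 0.30 (adjusted p = 1.4e-05), with no overlap. Mgll, which splits monoglycerides, had 30.1, 33.4, 43.7 and 12.9 CPM in BM, against 309, 183 and 241 CPM in AM, and fell by 3.02 ± 0.72 (adjusted p = 0.021). Fabp4 and the sterol exporter Abcg1 fell in both fits. The members that rose were Apoe and the desaturase Fads1.

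Sterol synthesis genes were lower where they changed. Of 23 tested 3 fell and none rose, and 7 fell without BM_day3.1, with medians of −0.95 and −1.09. Hmgcs1, which makes the precursor HMG-CoA, had 31.3, 32, 39.6 and 24.4 CPM in BM, against 106, 106 and 137 CPM in AM, and fell by 1.87 ± 0.26 (adjusted p = 0.0001). Insig1, which holds back the sterol regulator SREBP, had 21, 44.8, 60.7 and 35.9 CPM in BM, against 79.7, 110.2 and 104 CPM in AM, and fell by 1.27 ± 0.31 (adjusted p = 0.021). Mvd, a decarboxylase of the mevalonate pathway and the most abundant member per kilobase, had 69.3, 66.6, 69.5 and 63.2 CPM in BM, against 161, 100.4 and 127 CPM in AM, and fell by 0.95 ± 0.27 (adjusted p = 0.042). Fdft1, Cyp51, Msmo1 and Dhcr7 were gained without BM_day3.1. None of the 23 was called with a spread of its own for each group.

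Peroxisomal and mitochondrial genes gave few calls, all lower in BM. Over all genes tested 2.99% were called lower, or 2.57% without BM_day3.1, so counts this small say little about these lists. Of 29 peroxisome genes 3 fell, of 19 genes of mitochondrial fatty acid oxidation 1, and of 27 of oxidative phosphorylation 1 (each 2 without BM_day3.1). Acaa1b, a peroxisomal thiolase, had 0.0825, 4.02, 0.513 and 0.219 CPM in BM, against 23.8, 60.2 and 64.4 CPM in AM. Its close paralog Acaa1a had 110.5, 254, 167 and 209 CPM in BM, against 387, 274 and 306 CPM in AM, and reads may be split between them. Hadha, of the mitochondrial trifunctional protein, had 152, 124, 99.8 and 162 CPM in BM, against 215, 190.1 and 269 CPM in AM and fell by 0.74 ± 0.20 (adjusted p = 0.036). Cox5a, a subunit of complex IV, had 53.1, 68.4, 40.9 and 87.7 CPM in BM, against 128, 105 and 123 CPM in AM and fell by 0.92 ± 0.24 (adjusted p = 0.026). Cox4i1, the most abundant respiratory chain gene per kilobase, had 335 to 369 CPM in BM against 454 to 538 CPM in AM and missed the threshold (adjusted p = 0.081). Etfa, an electron carrier of fatty acid oxidation, had 165, 52.1, 46.6 and 89.5 CPM in BM, against 131, 117 and 135 CPM in AM, and was called without BM_day3.1 (−1.03 ± 0.20, adjusted p = 0.0035) but not with it (adjusted p = 0.25). The 37 genes of the mitochondrial genome had 0 counts in every library.

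Other lists gave few or no calls. None of 20 glycolysis and hypoxia genes passed with all libraries, and Pkm, their most abundant member per kilobase, had 1922 to 3964 CPM in BM against 1537 to 2621 CPM in AM. Of 24 cell cycle genes 1 fell. It was Stmn1, a regulator of microtubules, with 17.9, 50.3, 13.6 and 21.9 CPM in BM, against 142, 68.9 and 137 CPM in AM, and it was not called without BM_day3.1 (adjusted p = 0.091). Mki67, the marker of dividing cells, had 65.8, 114, 119.7 and 126 CPM in BM, against 248, 155 and 208 CPM in AM, with no overlap, and missed the threshold (−0.94 ± 0.29, adjusted p = 0.06). Pcna had 58.3 to 196 CPM in BM against 155 to 196 CPM in AM. Of 24 genes of oxidant defence and iron 1 rose, Slc11a1, the metal transporter of phagosomes, with 319, 555, 475 and 629 CPM in BM, against 146, 278 and 225 CPM in AM (1.19 ± 0.32, adjusted p = 0.035). Fth1, the ferritin heavy chain and the most abundant member per kilobase, had 11749 to 20129 CPM in BM against 16581 to 17834 CPM in AM. None of 17 genes of the response to dissociation and stress passed with all libraries, and Hspa8 had 1966 to 3595 CPM in BM against 3011 to 3363 CPM in AM.

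Several matrix genes were highest in BM_day3.1. Of 26 members 3 rose and 3 fell, 2 and 3 without it, and BM_day3.1 was the highest BM library for 14. Sparc, a matrix protein of bone and connective tissue, had 3664, 21, 54.5 and 9.31 CPM in BM, against 3.42, 9.12 and 9.08 CPM in AM, and its difference was 7.02 ± 1.81 with all libraries (adjusted p = 0.034) and 1.96 ± 0.88 without BM_day3.1 (adjusted p = 0.2). Col4a2 was lost without that library too. Col4a1, a basement membrane collagen, had 163, 35.2, 31.1 and 15 CPM in BM, against 1.40, 3.93 and 1.53 CPM in AM, and remained called without it (3.55 ± 0.87, adjusted p = 0.019). Col1a1 was not called in either fit (adjusted p = 0.11 and 0.55). Mmp19, a metalloprotease, had 19.9, 84, 62.9 and 44.2 CPM in BM, against 168, 239 and 235 CPM in AM, and fell by 2.02 ± 0.32 (adjusted p = 0.00062). Plaur, the urokinase receptor, had 237, 287, 195 and 229 CPM in BM, against 579, 470.1 and 552 CPM in AM, and fell by 1.17 ± 0.17 (adjusted p = 0.00026). Tgfbi, the most abundant member per kilobase, had 4402 to 5777 CPM in BM against 2846 to 4096 CPM in AM (adjusted p = 0.071). Pecam1, an endothelial adhesion molecule also found on monocytes, had 38, 40.8, 32.5 and 44.8 CPM in BM, against 1.87, 2.03 and 4.86 CPM in AM, with no overlap, and missed the threshold (adjusted p = 0.051).

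The largest rises included genes of innate defence and signalling. Pglyrp1, which binds bacterial peptidoglycan, had 145, 23.3, 35.3 and 11.1 CPM in BM, against 0.699, 1.05 and 0 CPM in AM, and rose by 6.49 ± 1.41 (adjusted p = 0.0089), or 5.27 ± 1.22 without BM_day3.1. Fcrls, an Fc receptor-like gene, had 92.2, 58, 152 and 12.2 CPM in BM, against 0.544, 2.95 and 0.450 CPM in AM, and rose by 5.88 ± 1.48 (adjusted p = 0.024). Hpgd, which inactivates prostaglandins, had 80.3, 48.2, 107 and 26 CPM in BM, against 0.466, 1.47 and 5.04 CPM in AM, and rose by 4.82 ± 1.07 (adjusted p = 0.01). Ets1, a transcription factor, had 93.4, 11.7, 39.9 and 30.7 CPM in BM, against 3.65, 0.561 and 1.53 CPM in AM, and Ccnd1, cyclin D1, had 90.4, 35.5, 53.5 and 18.4 CPM in BM, against 1.79, 0.631 and 7.74 CPM in AM. They rose by 4.52 ± 0.87 (adjusted p = 0.004) and 3.87 ± 0.89 (adjusted p = 0.013).

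For several of these genes BM_day3.1 held the highest value. Mmp13, a collagenase, had 175, 24.3, 53.5 and 12.1 CPM in BM, against 0.466, 3.44 and 3.87 CPM in AM, and its adjusted p was 0.018 with that library and 0.055 without it. Ifitm1, an interferon-induced membrane protein, had 192, 19.7, 36.5 and 10.5 CPM in BM, against 3.42, 5.96 and 2.07 CPM in AM, and its fold change was 4.08 ± 0.94 with it and 2.53 ± 0.72 without it.

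Other genes were among the largest rises once BM_day3.1 was left out, and it held none or almost none of their RNA. Tmem176a, a membrane protein of myeloid cells, had 0.0825, 48, 106 and 69 CPM in BM, against 2.25, 1.40 and 5.76 CPM in AM, and rose by 4.56 ± 0.75 without it (adjusted p = 0.00083). Mgl2, a lectin of macrophages and dendritic cells, had 0, 6.80, 24.6 and 18.4 CPM in BM, against 0.855, 0.771 and 0 CPM in AM, Cd300e, a receptor of monocytes, had 0, 92.2, 35 and 89.9 CPM in BM, against 4.12, 0.842 and 7.65 CPM in AM, and Abca9, a lipid transporter, had 0, 97.6, 98.2 and 85.7 CPM in BM, against 3.03, 14 and 2.88 CPM in AM. Without BM_day3.1 these 3 had adjusted p-values of 0.0054, 0.0054 and 0.00051. Dnah12, a dynein heavy chain, had 0, 33.2, 3.98 and 7.89 CPM in BM, against 0, 0 and 0 CPM in AM, and Asb2 had 0, 17.6, 22.4 and 1.31 CPM in BM, against 0, 0 and 0 CPM in AM. Both were at 0 in AM, and BM_day3.2 had the most Dnah12 by far.

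The day 3 difference was then set against that of day 1 and of day 7, by the interaction term of the same fit. Relative to day 7, 62 of 17143 genes passed (0.362%), 4 with a larger and 58 with a smaller BM minus AM value at day 3. BM_day7.1 and BM_day7.2 lay close together and BM_day7.3 apart for Itgam (317, 311 and 591 CPM), Siglecf (177, 177 and 24.1 CPM) and Slc11a1 (255, 256 and 440 CPM). Whether BM_day7.1 and BM_day7.2 are independent samples is not given. The spread of BM at day 7, and the p-values against day 7, may therefore rest on fewer independent samples than libraries. The Y-linked gene Eif2s3y had 0 to 66.5 CPM in BM and 68.3 to 87 CPM in AM at day 3, against 0 to 1.24 CPM in BM and 0 to 0.581 CPM in AM at day 7. With Y-linked RNA as a covariate 18 genes passed against day 7, all smaller and 16 of them among the 62. The part of whatever sets these libraries apart in the other calls was not tested. Relative to day 1, 1979 passed (11.5%), 604 larger and 1375 smaller. The BM libraries of day 1 carry a library-name prefix of their own, so that cell type at day 1 and prefix cannot be told apart.

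Of 20 blood monocyte genes, 3 had a smaller BM minus AM value at day 3 than at day 7 and 1, Ace, a larger one. Ccr2 did not pass (0.51 ± 0.81, adjusted p = 1). Itgam was at 622 ± 219 CPM in BM and 359 ± 87.8 CPM in AM at day 3 (SD, n = 4 and 3), and at 406 ± 160.2 CPM in BM and 16.1 ± 6.16 CPM in AM at day 7 (n = 3 and 4). The difference of the 2 log2 fold changes was −3.86 ± 0.56 (adjusted p = 0.00096). AM at day 3 held more than at day 7, in every library. Ly6c2 was at 1030.4 ± 456 CPM in BM and 653 ± 466 CPM in AM at day 3, and at 45 ± 30.8 CPM in BM and 1.11 ± 0.422 CPM in AM at day 7, with an interaction of −4.73 ± 0.76 (adjusted p = 0.004). The close relative Ly6c1 may share reads with Ly6c2. Slc11a1 was at 494 ± 133 CPM in BM and 216 ± 66.1 CPM in AM at day 3, and at 317 ± 106 CPM in BM and 11.6 ± 4.17 CPM in AM at day 7 (−3.57 ± 0.44, adjusted p = 0.00012). For these genes the AM level at day 3 was closer to that of BM than at day 7. Saa3 (−5.64 ± 1.12), Tlr1 (−3.17 ± 0.69), Maf (−2.78 ± 0.60) and Socs3 (−1.54 ± 0.35) passed in the same direction, with adjusted p-values of 0.031 to 0.048.

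Of 25 genes of alveolar macrophage identity, 2 had a smaller BM minus AM value at day 3 than at day 7 and none a larger one. They were Ccl6 and Atp6v0d2. Ccl6 was at 418 ± 145 CPM in BM and 2618 ± 1087 CPM in AM at day 3, and at 3603 ± 604 CPM in BM and 3780.1 ± 102 CPM in AM at day 7, where the groups overlapped (−2.58 ± 0.38, adjusted p = 0.00096). Atp6v0d2 was at 71.1 ± 38.8 CPM in BM and 903 ± 196 CPM in AM at day 3, and at 684 ± 203 CPM in BM and 1119.8 ± 47 CPM in AM at day 7 (−2.95 ± 0.47, adjusted p = 0.0022). Cd9 (−1.31 ± 0.30) and Hmgcs1 (−1.75 ± 0.36) passed too (adjusted p = 0.048 and 0.03). Among genes at 5 CPM or more in a group, gene models left out, the negative values with the largest size belonged to Ucp3, Htr2c, Cchcr1, Caskin2 and Tns2, which had 0 counts in all BM libraries of day 3, so that no size is given. At day 7 their means were 26.1, 12.1, 5.30, 3.99 and 5.70 CPM in BM and 127, 36.7, 11.8, 2.30 and 4.37 CPM in AM. Coro6, Acot1 and Ffar4, at or near 0 in BM at day 3, passed as well.

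The 4 genes with a larger value at day 3 were Ace, Col4a1, Hip1r and Acap1. Ace was at 186 ± 103 CPM in BM and 19.3 ± 4.40 CPM in AM at day 3, and at 52.1 ± 30.5 CPM in BM and 58.2 ± 6.46 CPM in AM at day 7 (3.42 ± 0.74, adjusted p = 0.044). Hip1r, a clathrin adaptor, was at 34.3 ± 21.2 CPM in BM and 15.4 ± 1.87 CPM in AM at day 3. At day 7 it was at 7.46 ± 3.33 CPM in BM and 50.2 ± 4.20 CPM in AM. Acap1, a regulator of recycling, was at 12.3 ± 6.36 CPM in BM and 6.01 ± 1.58 CPM in AM at day 3. At day 7 it was at 11.1 ± 3.17 CPM in BM and 56.3 ± 8.77 CPM in AM. For both genes AM was lower at day 3 than at day 7, in every library.

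**Figure D4:**
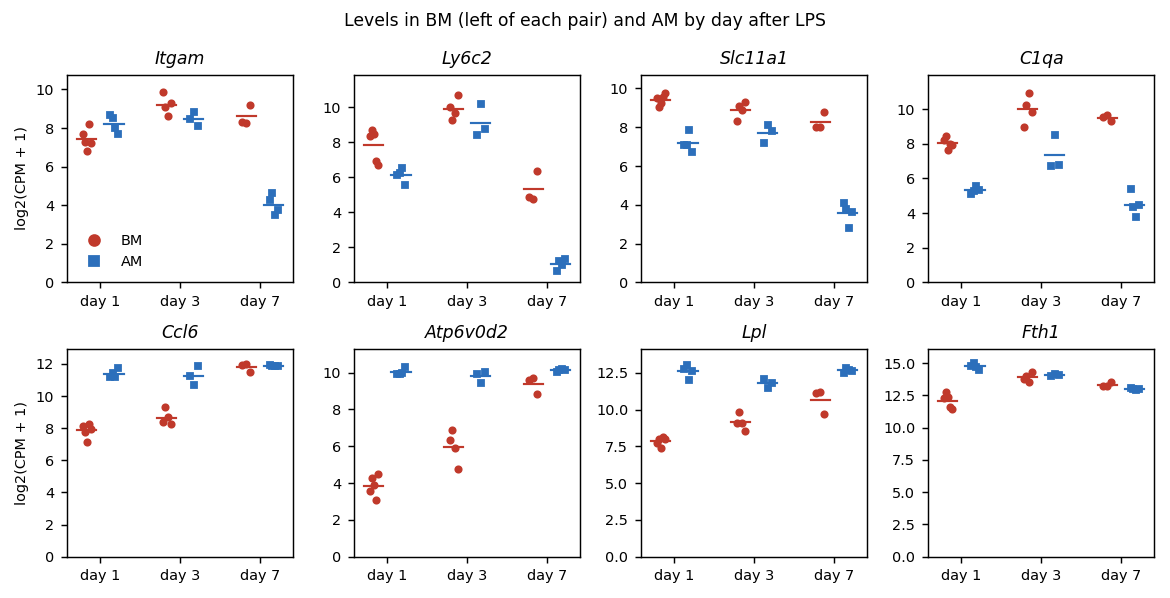
Level of 8 genes in every BM library (left of each pair) and AM library at days 1, 3 and 7, as log2(CPM + 1) with a bar at the mean of the log2 values. Itgam, Ly6c2 and Slc11a1 are high in both cell types at day 3 and low in AM at day 7, while Ccl6 and Atp6v0d2 are low in BM at days 1 and 3 and near AM at day 7.

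Relative to day 1, 10 of 35 lysosome genes had a larger BM minus AM value at day 3 and none a smaller one. Of 27 oxidative phosphorylation genes it was 9 and none. Of 19 genes of mitochondrial fatty acid oxidation it was 3 and none, and of 24 genes of oxidant defence and iron 6 and none. Of 26 lipid genes 1 had a larger and 3 a smaller value, and of 29 peroxisome genes it was 2 and 1. Of 20 glycolysis and hypoxia genes it was 1 and 1, and of 23 sterol synthesis genes none passed. Over all 17143 genes tested 11.5% passed, 604 larger and 1375 smaller. Fth1 was at 4663 ± 1756 CPM in BM and 27710.1 ± 4487 CPM in AM at day 1 (n = 5 and 4), and at 15489 ± 3601 CPM in BM and 17296 ± 645 CPM in AM at day 3 (2.41 ± 0.31, adjusted p = 2.8e-05). Lpl was at 237 ± 46.9 CPM in BM and 6433 ± 1817 CPM in AM at day 1, against 589 ± 225 CPM in BM and 3551 ± 695 CPM in AM at day 3 (2.17 ± 0.39, adjusted p = 0.001).

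Other genes had a smaller value at day 3 than at day 1. Of 20 blood monocyte genes 6 had a smaller value and none a larger one. It was 7 and none of 31 transcription factors, and 6 and none of 27 sensors of microbes and signalling genes. Of 26 receptors for cytokines and chemokines 6 had a smaller value and 1 a larger one. Cebpb was at 2093 ± 245 CPM in BM and 1135 ± 187 CPM in AM at day 1, and at 691 ± 103 CPM in BM and 1006 ± 53 CPM in AM at day 3 (−1.42 ± 0.20, adjusted p = 5.5e-05), so its order turned round. Il1b was at 6034 ± 1389 CPM in BM and 2940.3 ± 1065 CPM in AM at day 1, and at 969 ± 304 CPM in BM and 959 ± 111 CPM in AM at day 3 (−1.02 ± 0.33, adjusted p = 0.043). The negative values of largest size were those of Hist1h4k, Fndc9, Megf11, Hist1h4d and Hist1h2ae, which averaged 36.2, 13.7, 19.7, 62 and 6.06 CPM in BM at day 1 and at most 0.0206 CPM in BM at day 3. Histone transcripts mostly lack a poly(A) tail, and near-identical histone genes can share reads. The positive ones were those of Cgref1, Agt, Slc6a9, Sox18 and Reep1, whose day 3 reads all lay in BM_day3.1.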

How the data were processed

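RNA was sequenced from macrophages of mouse lung. The deposited table holds whole-number counts per gene, which the authors made with FastQC 0.11.9, Trimmomatic 0.39, HISAT2 2.1.0 and featureCounts 2.0.0 on GRCm38, per the submitters' processing notes. The annotation release and strand setting of the counting are not given in the sources used here, so reads of overlapping and antisense genes cannot be told apart.

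Libraries were grouped by their labels. All 26 were fitted in 1 model of 7 groups with edgeR 4.0.16 in R 4.3.3 (TMM scaling, filterByExpr with a minimum count of 10, robust quasi-likelihood F-test, Benjamini-Hochberg adjustment over 17143 genes, threshold 0.05). Log2 fold changes are BM minus AM, with the standard error taken from the F statistic. Levels are CPM after TMM scaling. The steps were tested on simulated data, in which each gene had the same spread in every group. That test therefore does not cover the unequal spread of BM and AM. DESeq2 1.42.0, limma 3.58.1, other filters, scalings, blocks and left-out libraries were tried as alternatives. Replicate numbers do not pair the libraries. AM_day3.3 carries the number 4 in its description.

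Named genes are 14 fixed genes, up to 4 called members per list with the largest change (non-overlapping groups, the higher one averaging 5 CPM or more), the most abundant tested member per kilobase of exon, the 10 largest rises and falls with and without BM_day3.1, and the 5 largest interactions in each direction, without gene models and pseudogenes. Other list members named were chosen after their values were seen. Some genes that these rules take are not reported here, though list counts include them. The genes and lists were chosen with earlier results of these data known. Bounds and floors cover counting error only. Promoter sequences are from RefSeq on GRCm38.p6.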

Additional observations from a re-analysis of the deposited data

Results flagged for a closer look

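Within BM at day 3, 22 of the 121 named genes tested had 1 library whose distance to its nearest neighbour took up nearly the whole range of the group (Dixon's test at the 95% level). Chance alone gives about 5% of groups such a library, but many of these genes were named for large differences among the same libraries, so the count cannot be read against that share. In most of them the library was BM_day3.1. It was the high one for Col1a1 14976 CPM, Id3 93.6 CPM, Sparc 3664 CPM, Col4a1 163 CPM, S100a9 1251 CPM, Ifitm1 192 CPM, Abhd3 36.8 CPM, Gal 33.8 CPM, Cgref1 136 CPM, Agt 64 CPM, Slc6a9 52.4 CPM, Sox18 52.3 CPM, Reep1 27.6 CPM and Acap1 21.8 CPM. It held 1 read, and the other BM libraries none, for Slc6a4 (0.0825 CPM), Ffar4 (0.0825 CPM) and Hist1h4d (0.0825 CPM). It was the low one for Abca9, with 0 CPM. Another library stood out for Fabp1 (3.16 CPM in BM_day3.2), Gbp2 (1006 CPM in BM_day3.4), Acaa1b (4.02 CPM in BM_day3.2) and Hspa12a (0.0548 CPM in BM_day3.4). The fibroblast marker sum moved with BM_day3.1, and its part in these values was not tested.

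Values are signed, so for a gene lower in BM at both days, such as Lpl, a larger value is a narrower gap. The BM minus AM value at day 3 was tested against that at day 1 by an interaction term in edgeR. It was larger at day 3, on the log2 scale, for Chil3 1.70, Cxcl3 2.41, Fcer1g 1.37, Atp6v0d2 2.53, Lpl 2.17, Etfa 1.18, Cox4i1 0.86, Sparc 6.63, Col4a1 3.76, Fth1 2.41, Hspa8 1.05 and Pf4 3.18. It was smaller for Il1b −1.02, Mki67 −1.33, Ace −2.21, Cebpb −1.42, Tlr1 −2.39, Cd14 −1.09 and Cd44 −0.98. The fitted values of genes with a group at or near 0 give no size, and only their direction can be read. They were Gal 11.07, Cgref1 22.80, Agt 20.19, Slc6a9 19.92, Sox18 17.98 and Reep1 17.90 among the positive ones and Flvcr2 −10.46, Ucp3 −9.38, Acot1 −6.83, Cchcr1 −8.68, Hspa12a −7.33, Ppm1j −7.92, Bsn −9.02, Zbtb32 −10.82, Ffar4 −7.20, Hist1h4k −19.96, Fndc9 −18.59, Megf11 −18.53, Hist1h4d −17.38, Hist1h2ae −17.21, Caskin2 −12.95 and Tns2 −10.06 among the negative ones. BM libraries of day 1 have a name prefix of their own, and the part of that in these values cannot be told apart from the day.

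Against day 7 the BM minus AM value was larger at day 3 for Ace 3.42, Col4a1 5.80, Hip1r 3.90 and Acap1 3.37. It was smaller for Itgam −3.86, Ly6c2 −4.73, Maf −2.78, Ccl6 −2.58, Saa3 −5.64, Tlr1 −3.17, Socs3 −1.54, Cd9 −1.31, Atp6v0d2 −2.95, Hmgcs1 −1.75 and Slc11a1 −3.57. For Ccl6, Cd9, Atp6v0d2 and Hmgcs1, which were lower in BM, a smaller value is a wider gap at day 3. Genes at or near 0 in BM at day 3 had Ucp3 −10.49, Coro6 −9.45, Htr2c −10.03, Acot1 −9.93, Cchcr1 −10.17, Ffar4 −8.86, Caskin2 −11.00 and Tns2 −10.37, which again give a direction and no size. Adjusted p-values of these day 7 terms were 0.00012 to 0.049.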

How the results depend on the processing

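All 79 named called genes kept their direction under each of the 24 alternatives that gave them a result, and Cd9 alone stayed called under all of them. The DESeq2 Wald test and the fit to the compared groups alone did not give every gene a full result. The 683 day 3 calls became 1834 with the DESeq2 Wald test, 398 with no filter on low counts, 1130 without the BM_day1 group, 1059 without BM_day3.1 and BM_day1.3, 287 with the Y-linked covariate, 110 with a weight per group, 42 and 74 within library numbers 26 to 34 and 7 to 16, and 6 in the fit to the compared groups alone. Leaving out 1 library gave 225 to 736, at 225 when AM_day3.3 was removed, 250 when AM_day3.1 was and 400 when BM_day3.3 was. The cause of these moves was not tested. Replicate numbers of titles and descriptions do not pair the libraries (correlations of same-numbered deviations −0.027, −0.0086 and −0.014), and a replicate block gave 605 calls by titles and 358 by descriptions.

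The 1979 calls against day 1 became 1253 with the stricter filter, 498 in the compared groups alone, 1289 with the number range as a term, 455 with a weight per group, and 1086 and 912 with the replicate block by titles and descriptions. Leaving out 1 library gave 1180 to 2171, with 1308, 1180 and 1306 without AM_day3.1, AM_day3.2 and AM_day3.3. The 62 calls against day 7 became 40 with DESeq2 size factors, 600 with the DESeq2 Wald test, 36 with no filter and also 36 with the range term, 323 in the compared groups alone, 168 without BM_day1, 104 without BM_day3.1 and BM_day1.3, 18 with the Y-linked covariate, 263 with a weight per library, 35 with a weight per group, and 21 and 19 with the replicate block by titles and descriptions. Leaving out 1 library gave 26 to 115. Weights per library and per group were added after the data were seen.

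Among named genes that did not pass, the log2 fold change took the other sign for Il1b −0.01 and Ctss −0.02 with the stricter filter, Il1b −0.11, Hp −0.26 and Psap 0.11 with removal of BM_day3.1 and BM_day1.3, Il1b −0.42, Hp −0.17 and Psap 0.04 with removal of BM_day3.1 and BM_day3.2, Il1b −0.01 and Ctss −0.01 with the replicate block by descriptions, Il1b −0.44, Hp −0.21 and S100a9 −0.22 with library numbers 26 to 34 alone. It was also Il1b −0.39, Hp −0.14, Ctss −0.02, S100a9 −0.07 and Slc6a9 −0.98 with the Y-linked covariate, Il1b −0.13, Hp −0.17, Psap 0.11, Cgref1 −0.30, Agt −0.33, Slc6a9 −0.34, Sox18 −0.34 and Reep1 −0.37 with a weight per library, Il1b −0.06, Hp −0.18 and Psap 0.02 with a weight per group, Gbp2 −0.06, Ctss −0.10, Fcer1g 0.02, Psap 0.04 and Gal 0.22 with library numbers 7 to 16 alone, Ctss −0.01 with the replicate block by titles. It was further Psap 0.02 with DESeq2 size factors, Psap 0.05 with library size alone, Psap 0.02 with the DESeq2 Wald test. With 1 library left out the fold change crossed 0, with a range of Il1b −0.17 to 0.15, Hp −0.26 to 0.22, Gbp2 −0.23 to 0.27, Ctss −0.10 to 0.12, Psap −0.15 to 0.11. Depth and the lower number of genes detected in BM limit the genes at 0 there, for which no fold change is given beyond a bound.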
